A study of Mus musculus with 4 samples.

Results

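The G1 cyclins and their kinases are the genes whose products carry a cell through G1 into S phase. The set described here was fixed by name: the D-type cyclin genes Ccnd1, Ccnd2 and Ccnd3, their kinase genes Cdk4 and Cdk6, the E-type cyclin genes Ccne1 and Ccne2, their kinase gene Cdk2, and the retinoblastoma gene Rb1. All 9 genes were on the array, among 28908 gene names in all, and 21 of its 45281 probes carried their symbols. Of these, 19 probes of 8 genes reached a detection p below 0.05 on 2 or more of the 4 arrays and were tested. The single Cdk6 probe and 1 Ccnd3 probe were detected on 1 array and were not.

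Total RNA of intestinal tumours from 2 ApcMin/+ mice on the C57BL/6J background, aged 30 weeks, was hybridised to Illumina mouse bead arrays. From each mouse, 3 large tumours (L, 4 to 5 mm in diameter) and 3 small tumours (S, at most 2 mm) were pooled by size, which gave an L pool and an S pool of each mouse, 1 array per pool. All pools share the germline Min mutation, which truncates 1 of the copies of Apc, a brake on Wnt signalling, and no normal mucosa was analysed here. The title names trefoil factor family 2 in tumour enlargement, and the comparison made here is L against S. A pool mixes 3 tumours with their stroma and immune cells, so fewer cells of a type and less RNA per cell cannot be told apart.

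D-type cyclins bind Cdk4 or Cdk6 and start the phosphorylation of the Rb protein, which holds E2F transcription factors in check. Freed E2F factors raise transcription of Ccne1, Ccne2 and the genes of DNA synthesis, and cyclin E with Cdk2 completes the phosphorylation of Rb and starts replication. In the intestine, Ccnd1, Ccnd2 and Myc are known as genes that respond to Wnt signalling, and Cdk4 is known in human cells as a gene that the Myc protein binds and activates.

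The sequences before Cdk4 and Cdk2 are shown because these kinases had different patterns in the results below: Cdk4 was higher in L in both mice, whereas Cdk2 stood highest in the S pool of mouse 2. The sequences are RefSeq windows of the build GRCm38.p6 and give the 250 bases before the gene's start, 5′ to 3′ on the gene's strand. Cdk4 lies on chromosome 10, chr10:127063285-127063534 on the plus strand, and capitals mark the E-box CACGTG, a letter sequence that Myc with its partner Max is known to bind.
Cdk4: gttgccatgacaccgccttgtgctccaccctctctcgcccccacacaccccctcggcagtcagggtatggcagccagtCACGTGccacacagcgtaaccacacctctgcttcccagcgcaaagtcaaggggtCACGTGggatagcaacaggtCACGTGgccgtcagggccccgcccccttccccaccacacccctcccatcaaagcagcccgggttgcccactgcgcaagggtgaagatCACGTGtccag
Cdk2 lies at chr10:128705052-128705301 on the minus strand, and capitals mark TTCCCGC or its reverse complement, a core of E2F binding sites.
Cdk2: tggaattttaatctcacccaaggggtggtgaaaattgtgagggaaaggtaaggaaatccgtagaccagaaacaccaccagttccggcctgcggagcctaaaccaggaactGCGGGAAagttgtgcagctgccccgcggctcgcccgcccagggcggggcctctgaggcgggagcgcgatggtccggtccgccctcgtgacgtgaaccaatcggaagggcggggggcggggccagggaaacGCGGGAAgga

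CACGTG, which reads the same on both strands, occurred 4 times before Cdk4, starting 172, 118, 98 and 11 bases before the gene's start. At least 1 match was found in 6.02% of 32851 such windows of mouse genes, and at least 4 in 7 of them (0.0213%). TTCCCGC and TTGGCGC were searched on both strands as E2F cores, and 2 matches stood before Cdk2, starting 140 and 10 bases before the gene's start. At least 1 was found in 5.62% of the windows and at least 2 in 0.393%. The table held windows for 5 of the 9 genes. Those of Ccnd3 and Ccne1 held neither motif, and that of Cdk6 held 1 CACGTG. The matches are letters in a window and no measurement of binding. Their part in the patterns of Cdk4 and Cdk2, of which neither passed the test below, was not tested.

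Between 18969 and 19990 probes were detected per array. The S pool of mouse 2 stood apart: across genes its Pearson r with the other arrays was at most 0.952, against up to 0.978 between the others (genes are not independent replicates). Values below are normalized log2 intensities unless signals are named, so a difference of 1 is 2-fold, and they compare arrays for 1 probe, not probes with each other. The test was limma over 20214 probes (two-sided, with 0.05 as the threshold of the Benjamini-Hochberg adjusted p), and the pools of a mouse were not paired in it. An exact permutation test of 2 against 2 arrays cannot go below p = 0.333. With 2 arrays per size, their number limits the precision. The p-values rest on the spread between 2 animals, which limma draws towards the spread of all tested probes. That shared spread carried 5.03 of the 7.03 degrees of freedom without the mouse as a block. The SE of a probe with close replicates is therefore mostly the shared value.

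No probe of the 9 genes passed. In limma the lowest adjusted p among their 8 brightest tested probes was 0.669 (Rb1), and with the mouse as a block, which pairs the pools of an animal, it was 0.347 (Ccne2). Over all probes 0% passed without the block and 0.594% with it (0.683% of genes), where the smallest log2 difference of a probe that passed was 1.62 (3.07-fold). At an unadjusted p under 0.05, 0 of the 8 genes passed without the block and 1 with it (Ccne2), against 7.23% and 10.6% of all genes. Each gene is represented by its brightest tested probe. By that probe Ccnd3 and Cdk4 were higher in L in both mice, Ccne2 and Rb1 were lower in both, and Ccnd1, Ccnd2, Ccne1 and Cdk2 went opposite ways in the mice. The shares over all 13906 tested genes were 30.7% higher in both, 26.7% lower in both and 42.5% opposite. Of the opposite 4, Ccnd1 and Ccnd2 were lower in L in mouse 1 alone, as 19.9% of all genes were, and Ccne1 and Cdk2 in mouse 2 alone, as 22.6% were. The median log2 difference over the 8 genes was 0.01 (−0.03 in mouse 1 and 0.06 in mouse 2), beside 0.02 over all genes.

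**Figure D1:**
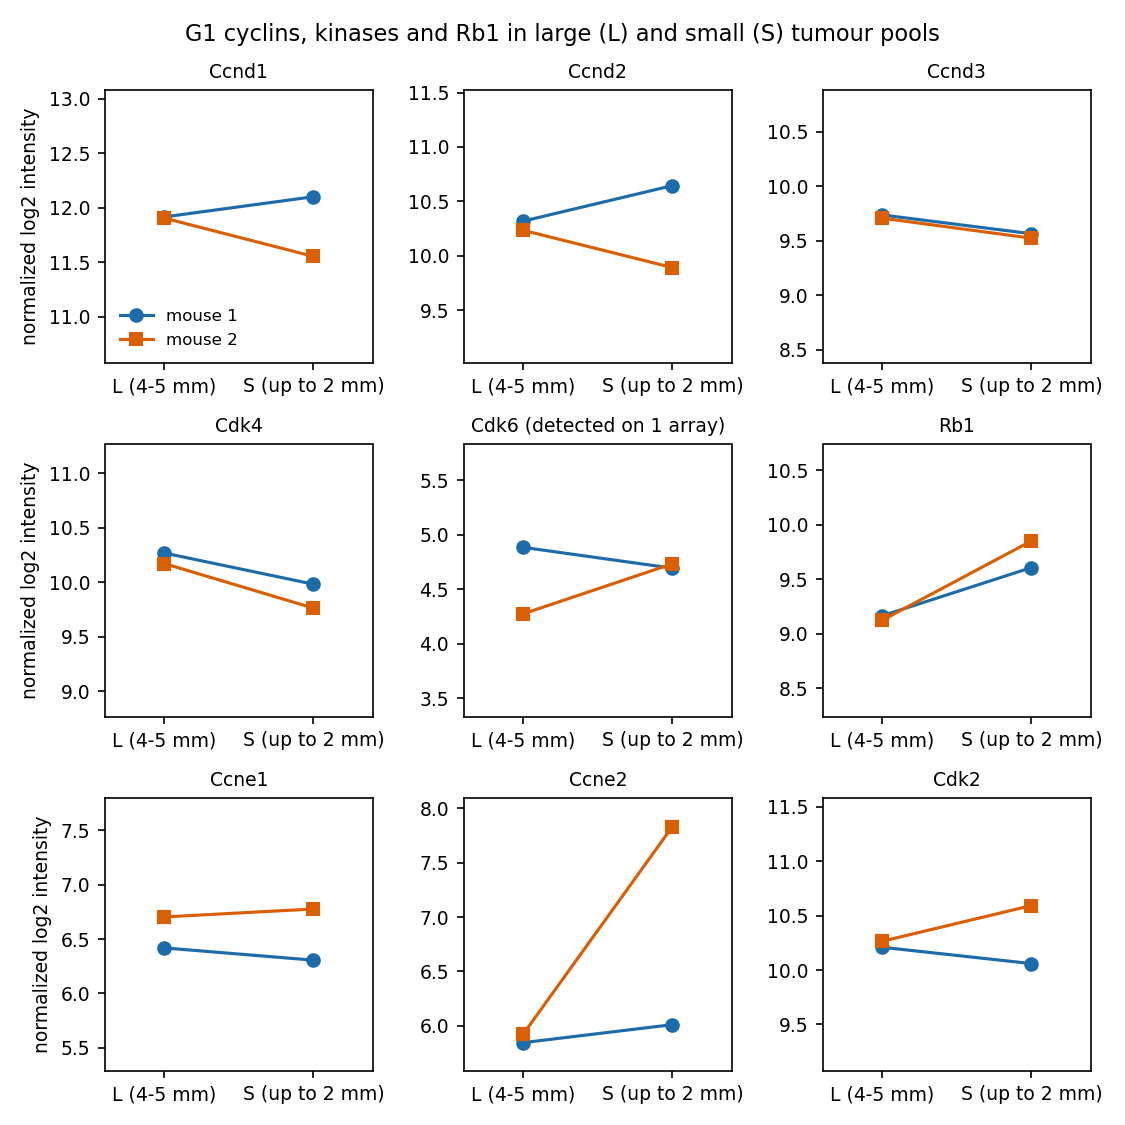
Normalized log2 intensity of the brightest probe of each gene in the L and S pools of mouse 1 (circles) and mouse 2 (squares), with a line joining the pools of a mouse; every panel spans the same log2 range. Cdk4 and Ccnd3 lie higher and Rb1 lower in L in both mice, and Ccne2 is set apart by the S pool of mouse 2 at 7.83.

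Ccnd1 encodes cyclin D1. Its brightest probe read 11.91 in the L pool of mouse 1 and 11.90 in that of mouse 2, against 12.10 and 11.55 in the S pools. The L values lay between the S values, so the groups overlapped. The difference, L minus S on the log2 scale, was −0.19 for mouse 1 and 0.35 for mouse 2, with a mean of 0.08 (SE 0.32, limma adjusted p = 0.957, 95% interval −0.66 to 0.83). The interval spans 0.631-fold to 1.78-fold. The deposited signals behind it were 3616 and 4079.9 in L, against 4304 and 3186 in S. A second Ccnd1 probe differed by 0.04 in mouse 1 and 0.08 in mouse 2. The dimmest, with signals of 349 to 641, was lower in L in both mice, with differences of −0.43 and −0.22 (limma adjusted p = 0.842).

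Ccnd2, the gene of cyclin D2, behaved much like Ccnd1 across the 4 arrays. Its brightest probe read 10.32 and 10.23 in L, against 10.65 and 9.89 in S, and again the L values lay between the S values. L minus S was −0.33 for mouse 1 and 0.34 for mouse 2 (log2, mean 0.0079, SE 0.35, limma adjusted p = 0.996, 95% interval −0.81 to 0.83). The second probe went the same way in each mouse, with differences of −0.47 and 0.29. Of the 2 dim probes, with signals between 66.2 and 112, one was lower in L in both mice (−0.70 and −0.07) and the other differed by 0.05 and 0.08.

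Ccnd3, the gene of cyclin D3, differed little between sizes, and its probes disagreed in direction. The brightest read 9.74 and 9.71 in L, against 9.57 and 9.52 in S, so the L pools lay above both S pools after normalization. Its deposited signals were 825 and 879 in L, against 740 and 873 in S, and these overlapped. L minus S was 0.17 for mouse 1 and 0.18 for mouse 2 (log2, mean 0.18, SE 0.28, limma adjusted p = 0.879). A dimmer probe, filed under another transcript identifier, read 6.05 and 6.11 in L, against 6.42 and 6.54 in S. Its differences were −0.37 and −0.44 (mean −0.40, SE 0.28, limma adjusted p = 0.726), with L below both S pools. The third probe, filed with the second, was detected in the L pool of mouse 2 alone.

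Cdk4, the kinase gene of cyclin D complexes in most cells, was higher in L in both mice by both of its probes, and neither passed. The brightest had deposited signals of 1167 and 1221 in L, against 979 and 1027 in S, with standard errors over beads of 34.3 to 58.7. On the normalized scale it read 10.27 and 10.17 in L, against 9.98 and 9.76 in S, and the groups did not overlap. L minus S was 0.29 for mouse 1 and 0.41 for mouse 2 (log2), a mean of 0.35 or 1.27-fold (SE 0.29, limma adjusted p = 0.762, 95% interval −0.33 to 1.03). The second probe read 7.04 and 7.68 in L, against 6.82 and 6.95 in S, and differed by 0.23 and 0.73 (limma adjusted p = 0.721). The L pools also lay above both S pools for this probe.

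Cdk6, the other kinase gene of D-type cyclins, could not be measured with its probe. Its signals were 67.6 and 46.6 in L, against 60.9 and 66.0 in S. Its detection p, a value of the deposited table, was 0.0273 and 0.838 in L, against 0.0864 and 0.0739 in S, so only the L pool of mouse 1 stood above background. A probe not above background does not show that the transcript is absent: the probes of Fabp1 and Fabp2, abundant genes of enterocytes, were not tested for the same reason.

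Rb1 encodes the protein that the G1 kinases phosphorylate, and it was lower in L in both mice by both of its probes, without passing the test. The brightest read 9.17 and 9.12 in L, against 9.61 and 9.85 in S, with no overlap. L minus S was −0.44 for mouse 1 and −0.73 for mouse 2 (log2), a mean of −0.59 or 0.667-fold (SE 0.29, limma adjusted p = 0.669, or 0.570 with the block, 95% interval −1.27 to 0.10). The unadjusted limma p was 0.0818, the lowest among the 8 brightest probes. The second probe read 7.72 and 8.04 in L, against 8.50 and 8.21 in S, and differed by −0.78 and −0.17 (limma adjusted p = 0.707). That mean difference was −0.48, and the L pools again lay below both S pools.

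On the normalized scale, groups that did not overlap were thus found for 4 of the 8 genes by their brightest probes. They were Ccnd3 and Cdk4 with L higher, and Ccne2 and Rb1 with L lower. The deposited signals of Ccnd3 did overlap. Over all tested genes, 22.2% did not overlap with L higher and 17.6% with L lower, so the members' counts lay near the background.

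**Figure D2:**
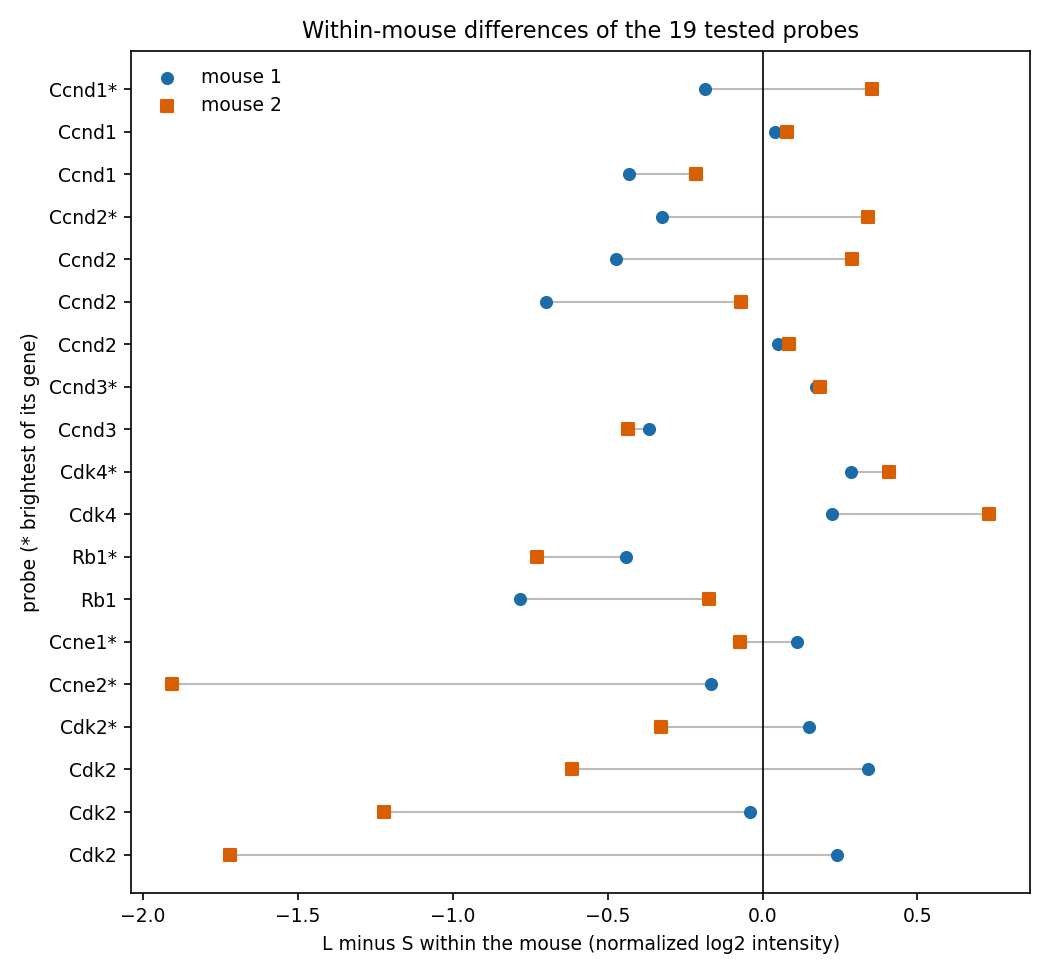
Log2 difference, L minus S, within mouse 1 (circles) and mouse 2 (squares) for the 19 tested probes, ordered by gene with the brightest probe of each gene starred. Of the probes, 5 were higher in L in both mice, 7 lower in both and 7 opposite, and the widest gaps between the mice belong to Ccne2 and the dimmest Cdk2 probe.

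Ccne1, 1 of the 2 cyclin E genes, hardly differed between sizes. Its probe read 6.42 and 6.70 in L, against 6.31 and 6.78 in S, and the groups overlapped. L minus S was 0.11 for mouse 1 and −0.07 for mouse 2 (log2, mean 0.02, SE 0.32, limma adjusted p = 0.990, 95% interval −0.73 to 0.77). The mice were farther apart than the sizes: mouse 2 minus mouse 1 was 0.28 in L and 0.47 in S.

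Ccne2, the other cyclin E gene, had the largest difference of the set, and 1 array carried it. Its probe read 5.85 and 5.93 in L, against 6.01 in the S pool of mouse 1 and 7.83 in that of mouse 2. The deposited signals were 96.0 ± 4.88 and 93.4 ± 8.23 in L, against 99.8 ± 6.28 and 297 ± 11.4 in S (± the standard error over 24 to 45 beads). L minus S was −0.17 for mouse 1 and −1.91 for mouse 2 (log2). Their mean was −1.04 or 0.488-fold (SE 0.56, limma adjusted p = 0.684, or 0.347 with the block). Without the S pool of mouse 2 the difference was −0.13, and without that of mouse 1 it was −1.95. The within-mouse differences lay farther apart than those of 97.7% of tested genes.

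Cdk2, the kinase gene of cyclin E, was also highest in the S pool of mouse 2 by all 4 of its probes, but its brightest probe went opposite ways in the mice. The brightest read 10.21 and 10.26 in L, against 10.06 and 10.59 in S, and differed by 0.15 in mouse 1 and −0.33 in mouse 2. Its mean difference was −0.09 (SE 0.31, limma adjusted p = 0.953, 95% interval −0.83 to 0.66), and without the S pool of mouse 2 it was 0.18. The second probe differed by 0.34 and −0.61, the next by −0.04 and −1.22, and the dimmest by 0.24 and −1.72. In the S pool of mouse 2 the deposited signals of the 4 probes were 1727, 911, 453 and 298. In the S pool of mouse 1 the same probes had 1038, 402, 222 and 116. The probes thus shared the highest array, but not the order of the others, and the size of the mouse 2 difference ran from −0.33 to −1.72. Of them 3, the brightest and both dimmer ones, were filed under 1 transcript identifier.

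**Figure D3:**
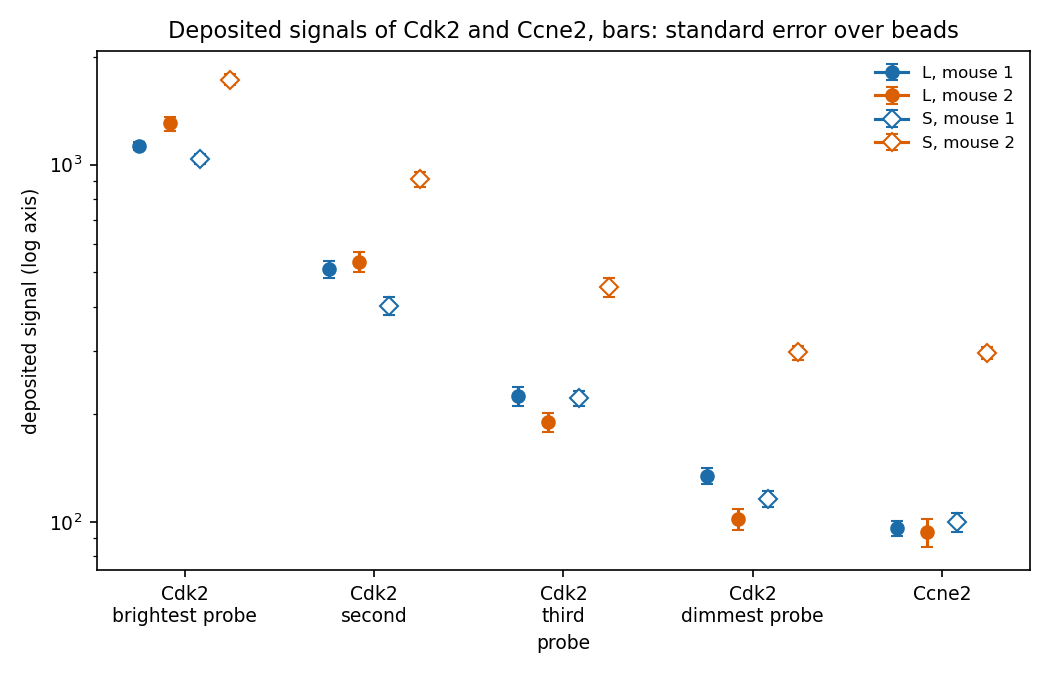
Deposited signal, not normalized and on a log axis, of the 4 Cdk2 probes and the Ccne2 probe, with L pools filled, S pools open and bars for the standard error over beads. In each of the 5 probes the S pool of mouse 2 is the highest, at 298 for the dimmest Cdk2 probe and 297 for Ccne2.

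The S pool of mouse 2 stood at opposite ends for different members. By their brightest probes, Ccnd1, Ccnd2, Ccnd3 and Cdk4 were lowest in this pool (2 of these 4 with median scaling), and Ccne1, Ccne2, Cdk2 and Rb1 were highest in it. Over all tested genes this pool was the lowest array for 34.7% and the highest for 33.9%, and so at an extreme for 68.6%. This grouping was chosen after the values were seen and has no test. Over all tested probes it was less complete: the pool was lowest for 7 of 11 probes of D-type cyclins and Cdk4 and highest for 1, and it was highest for 7 of 8 probes of the other 4 genes. By the brightest probes the mice also lay farther apart in S than in L in all 8 genes, against 62.8% of all genes. That count has no test and was not recomputed under other settings. For Ccnd3 the margin was narrow, with the mice 0.04 apart in S and 0.03 in L. The second probes of Cdk4 (0.635 in L and 0.13 in S) and Rb1 (0.32 in L and 0.29 in S) went the other way. By the brightest probes, the median distance between the mice was 0.07 in L and 0.50 in S over the 8 genes, beside 0.26 and 0.42 over all genes.

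By the size of its mean difference, Ccne2 was the gene for which like patterns were sought. The 3 genes nearest to it over the 4 arrays, by the root mean square distance of centred log2 values, were Bdp1 (0.10), LOC434200 (0.11) and LOC270491 (0.12). Bdp1, a gene of the RNA polymerase III initiation factor, read 5.56 and 5.37 in L, against 5.58 and 7.38 in S. All 3 were highest in the S pool of mouse 2, which follows from choosing them by their closeness to Ccne2.

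The genes around the G1 kinases were read from lists by role. Inhibitors of the kinases followed no common direction. Of 7 tested, 2 were higher and 1 was lower in L in both mice and 4 were opposite, and the medians were −0.24 (mouse 1) and 0.31 (mouse 2). The lower one was Cdkn1a, the p21 gene, at 9.97 and 10.19 in L, against 10.87 and 10.56 in S. L minus S was −0.89 for mouse 1 and −0.37 for mouse 2 (limma adjusted p = 0.662). Cdkn1c, the p57 gene, read 9.58 and 11.38 in L, against 9.83 and 9.10 in S, a difference of −0.24 in mouse 1 and 2.28 in mouse 2 (limma adjusted p = 0.690). Both were named after their values were seen.

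Among 11 tested pocket protein and E2F factor genes, 1 was higher and 2 were lower in L in both mice, and 8 were opposite. E2f2, an activating E2F factor, was the one at least 1.5-fold apart in both mice. It read 8.98 and 8.75 in L, against 9.71 and 10.13 in S, so that L minus S was −0.73 for mouse 1 and −1.38 for mouse 2 (limma adjusted p = 0.588, or 0.239 with the block). The share of all genes at least 1.5-fold lower in both mice was 3.10%. Rbl1, which encodes the Rb relative p107, was the other lower gene, with differences of −0.19 and −0.56, and was named after its values were seen. Of 14 genes that activate or turn over the G1 kinases, 3 were higher in L in both mice and 5 lower, and none was 1.5-fold apart in both.

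Targets of E2F in DNA synthesis went opposite ways in the mice, as Cdk2 did. Of 16 tested, 11 were higher in L in mouse 1 and lower in L in mouse 2, against 22.6% of all genes. The median difference was 0.20 in mouse 1 and −0.25 in mouse 2. Mcm5, a subunit of the replicative helicase, read 10.90 and 10.85 in L, against 10.43 and 11.66 in S. Mitosis genes were alike, with 9 of 13 in that arrangement and medians of 0.24 and −0.31. Top2a, the topoisomerase of dividing cells, read 10.17 and 9.60 in L, against 10.00 and 10.78 in S. For 10 of the 16 and 8 of the 13 the S pool of mouse 2 was the highest array, against 33.9% of all genes. No gene of either list passed limma with or without the mouse block, and the examples were chosen after their values were seen.

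**Figure D4:**
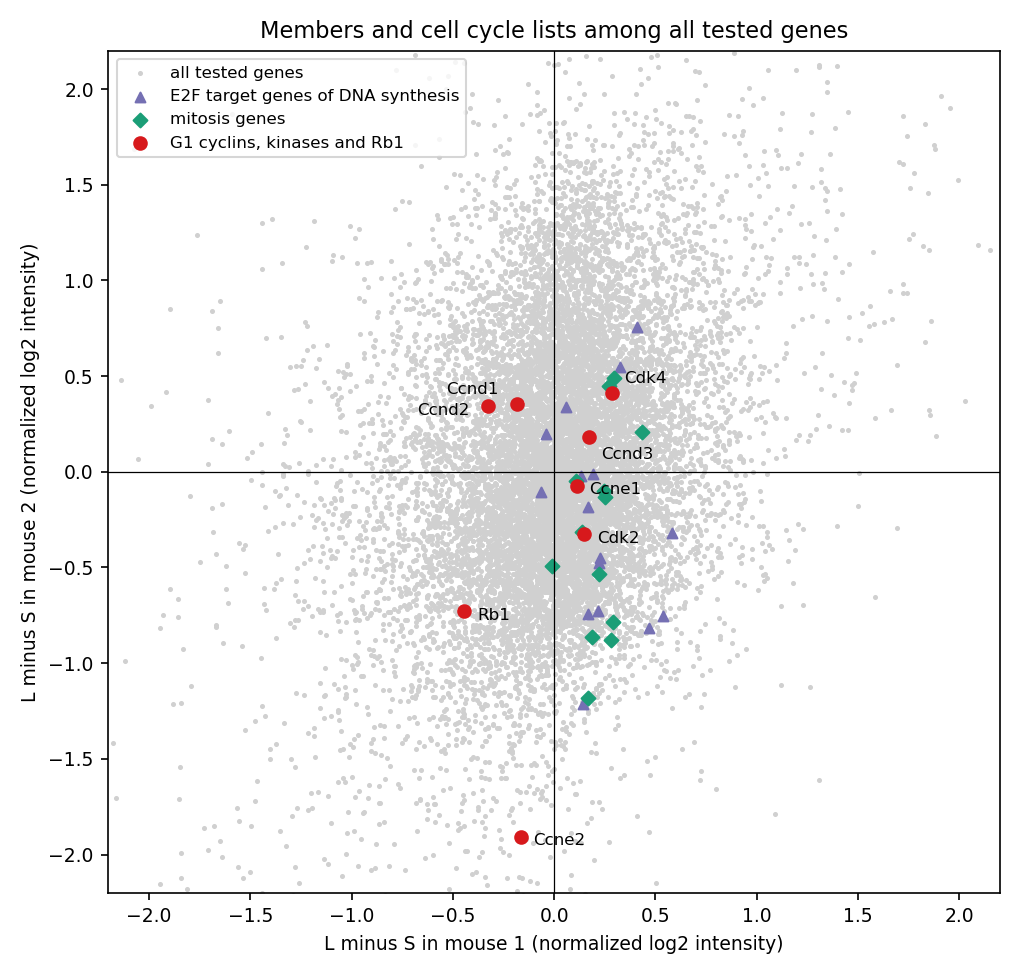
Log2 difference, L minus S, in mouse 1 (x) against mouse 2 (y), with the 8 tested members labelled, E2F targets of DNA synthesis as triangles, mitosis genes as diamonds and all tested genes in grey; 188 genes lie outside the axes, which end at 2.2 on either side. Most triangles and diamonds lie to the right of 0 and below it, as Cdk2 and Ccne1 do.

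A list drawn up for regulators upstream of the D-type cyclins also held genes that respond to Wnt signalling. Of its 16 tested genes, 6 were higher and 3 lower in L in both mice. The 3 that were at least 1.5-fold higher in both are known as genes that respond to Wnt signalling, where 3.46% of all genes were. The Wnt inhibitor gene Nkd1 differed by 0.93 in mouse 1 and 1.78 in mouse 2, the Wnt deacylase gene Notum by 0.90 and 1.55, and the transcription factor gene Tcf7 by 1.15 and 1.06. Their limma adjusted p was 0.588 each, and 0.123, 0.162 and 0.196 with the mouse block. Axin2, a standard readout of Wnt signalling, differed by 0.35 and −0.10. Myc read 5.62 and 5.31 in L, against 5.49 and 6.92 in S, so it too was highest in the S pool of mouse 2 (limma adjusted p = 0.710). Axin2 and Myc were named after their values were seen.

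Marker lists of the cell types in a pool differed between sizes and between the mice, and their part in the results above was not tested. All 9 epithelial markers were tested, and 6, among them Cdh1, were lower and 2 higher in L in both mice. Epcam, 1 of the 2 higher (0.31 and 0.46), was detected on 2 of the 4 arrays. The summed normalized intensity of the 9 markers was 46840 and 49792 in L, against 53320 and 62598 in S. Here and below, such sums on the linear scale follow the brightest probes of a list most. Of 10 enterocyte markers, 9 were on the array and 7 tested, of which 6 were lower in L in both mice, with sums of 18296 and 42130 in L, against 30288 and 63540 in S. Fibroblast markers were tested in 8 of 8 cases, 7 of them higher in L in both mice, with sums of 10387 and 5394 in L, against 7185 and 3173 in S. Among them Lum, named after its values were seen, differed by 1.72 and 1.61 and passed limma with the mouse block (adjusted p = 0.0439). T cell markers were tested in 5 of 8 cases. Cd5 was not on the array, and Cd4 and Cd8a were not detected on 2 or more arrays. The sums of the 5 tested were 337 and 299.6 in L, against 733 and 373 in S, so the S pool of mouse 1 had the most T cell signal. By their brightest probes Ccnd1 and Ccnd2 also read highest in that pool. The second Ccnd1 probe (11.87) and a dim Ccnd2 probe (5.08) read highest in the L pool of mouse 1. The S pool of mouse 1 also led for macrophage markers (7 of 8 tested), at 2495 and 1595 in L, against 3085 and 1162 in S, and for B and plasma cell markers (4 of 8 tested). All 4 tested neutrophil markers, of 6, were at least 1.5-fold higher in L in both mice, with sums of 3209 and 4049 in L, against 1018 and 459 in S, and 3 of them passed limma with the mouse block, as 0.410% of all genes did with L higher.

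**Figure D5:**
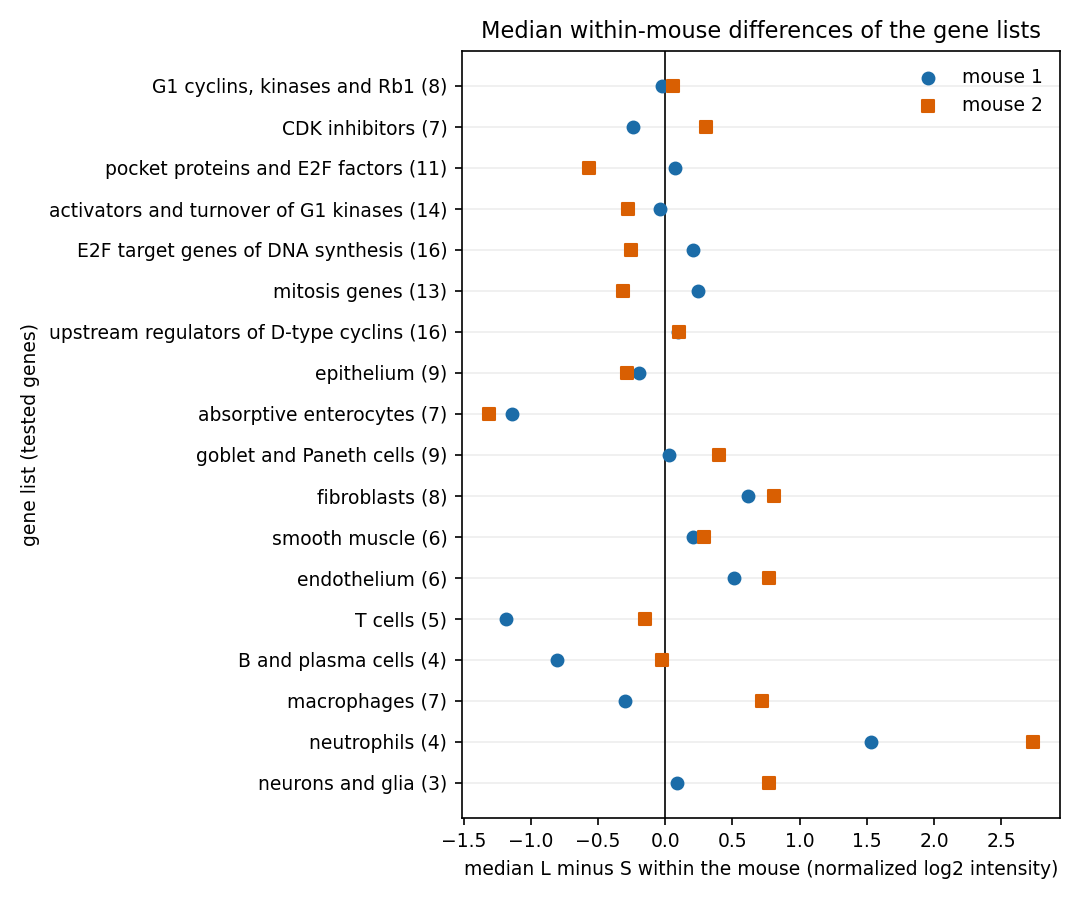
Median log2 difference, L minus S, within mouse 1 (circles) and mouse 2 (squares) for the G1 set, the lists of related cell cycle genes and the cell type markers, with the number of tested genes in brackets; the exocrine pancreas list, with 1 tested gene, is left out. The G1 set lies at −0.03 and 0.06, and enterocyte markers at −1.14 and −1.31.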

How the data were processed

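The deposited scanner table holds 4 values for each probe and array. Per the file headers, the authors exported them without normalizing the signals or subtracting background, with a software module of version 3.2.6, and the submitters' processing notes name BeadStudio. The deposited bead signal and its standard error are on a linear intensity scale, the bead number is a count, and the detection p-value compares a probe with background in the authors' deposited table. The authors' normalized intensity matrix (15274 probes, by a method not stated in these sources) served as an alternative.

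In R 4.3.3, neqc (limma 3.58.1) processed the signals (background from detection p-values, offset 16, quantile normalization, log2), and lmFit with eBayes gave the tests. Symbols were updated through RefSeq names (GRCm38.p6). The slide position of each array was not used here. The members, lists and tests were chosen with earlier results of these data known. Every member is named. Named from each cell cycle list were genes that differed by 1.5-fold or more, and the same way, in each mouse. The 3 genes nearest to the member with the largest difference of 1 sign were added, and other genes are marked as chosen after their values were seen. Pools of a number come from the same mouse by the labels, and across genes the difference between the mice in S correlated with that in L (Pearson r = 0.251). The block left 1 residual degree of freedom. The fit was tested on simulated data. The alternatives tried are listed with their effects in the closing section.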

Additional observations from a re-analysis of the deposited data

How the results depend on the processing

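The probe and member calls, the member median and each member's L minus S were recomputed with the mouse as a replicate block, no background correction, an offset of 50, median scaling, the authors' values, no filter, a strict filter (detected on all 4 arrays), the dimmest probe per gene (for the median and the members), and without each array in turn; values of other lists were not. None of the 8 tested genes passed limma under any of them. No probe passed in the fit reported; 120 passed with the block, 2 with median scaling, and 0 to 70 without 1 array, where the lone pool of a size is assumed to vary like the others (70 without the L pool of mouse 1, 19 without that of mouse 2). The block changed no call of a member. The median over the 8 genes was 0.01, went to −0.061 with median scaling and −0.36 with the dimmest probes, and ran from −0.03 to 0.02 without 1 array. Cdk4, Rb1 and Ccne2 kept their direction under all alternatives: Cdk4 ran from 0.24 to 0.48, Rb1 from −0.71 to −0.46 and Ccne2 from −1.95 to −0.13. Several alternatives could not have turned them. The block and the filters leave these estimates as they are, and leaving out 1 array cannot turn a gene whose pools do not overlap. The only probe of Ccne2 is both its brightest and its dimmest. The other tested genes turned. With the dimmest probe Ccnd1 was −0.32 and Ccnd3 −0.40. With median scaling Ccnd2 was −0.069 and Ccne1 −0.053. Without 1 array Ccnd1 ran from −0.19 to 0.36, Ccnd2 from −0.37 to 0.38, Ccne1 from −0.22 to 0.25 and Cdk2 from −0.36 to 0.18. The S pool of mouse 2 was lowest for 4 of 4 D-type cyclin and Cdk4 genes, except with median scaling (2 of 4); this count was chosen after seeing the data and recomputed under the settings of background, scaling, values and filter only. The cause of these changes was not tested. Dim probes, such as that of Cdk6, are limited by signal over background.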
